A study of Homo sapiens with 24 samples.

Results

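The WNT ligands, their frizzled receptors and the secreted antagonists of the SFRP and DKK families were followed through maps of H3K27ac, the acetylation of lysine 27 on histone H3 that marks active promoters and enhancers. Members were every gene whose symbol is WNT, FZD, SFRP or DKK with its number and, for WNT genes, an optional A or B, and their regions were those that the authors' annotation placed on the gene or within about 10 kb beside it. Of 37 such genes, 27 had a region, 12 of 19 ligands, 9 of 10 receptors and 6 of 8 antagonists. They accounted for 190 of the 171345 regions in the 6 deposited tables. The genes without a region were WNT3, WNT4, WNT8A, WNT8B, WNT9B, WNT11, WNT16, FZD10, SFRP2 and DKK4.

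The study compared ANCO1 knockdown with control cells in 2 human mammary epithelial lines, asking how loss of ANCO1, the product of ANKRD11, alters the placement of this mark. 10A (MCF10A) is an immortalized, non-tumorigenic line used as a pre-malignant model, and DCIS (MCFDCIS) is a derivative that models early triple-negative ductal carcinoma in situ. In each line, cells infected with lentivirus expressed a hairpin that targets ANCO1 (shANCO1) or, as the control, a GFP hairpin (shCTRL, labelled shGFP in the genotype). Both kinds had immunoprecipitated and input libraries, giving 8 groups of 3 libraries and 24 in all. As the study describes it, the mapped shANCO1 cells were the line of a single hairpin, so the effects of ANCO1 loss and of that hairpin cannot be told apart. The tables hold 1 value per region for whole groups. No value per library, read depth or replicate spread could therefore be given, and the knockdown itself cannot be read from this mark. Each fold change below is the authors' deposited log2 ratio of shANCO1 to shCTRL for 1 representative window of a region, and a region is called higher or lower where the FDR of the authors' csaw test was under 0.05 in the stated direction.

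WNT proteins are secreted, lipid-modified glycoproteins that bind frizzled receptors on the cell surface. With LRP5 or LRP6 as co-receptor they stabilise β-catenin, which acts with TCF/LEF factors in the nucleus, while other ligand and receptor pairs signal through cell polarity and calcium pathways. SFRP proteins carry a frizzled-like domain and can bind WNT ligands outside the cell, and DKK1, the best known DKK protein, binds LRP5 and LRP6 and blocks canonical signalling. In the mammary gland WNT signals take part in branching and in the upkeep of basal progenitor cells.

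The regions on which the results turn are shown first. For genes with overlapping regions higher in both lines, the 300 bases at the middle of the overlap with the lowest DCIS FDR are given, for SFRP5 the middle of its most strongly lowered region, and for DKK1 and FZD1 the 250 bases before the RefSeq start (GRCh38.p14), since the changed regions there cover the promoter. Sequences read 5′ to 3′ on the plus strand of GRCh38. Capitals mark matches on either strand to GGAATG (TEAD) and CTTTGA (TCF/LEF), and TGANTCA (AP-1) was searched but had no match in these windows.
WNT7B, chr22:45919451-45919750, just beyond the gene's 3′ end: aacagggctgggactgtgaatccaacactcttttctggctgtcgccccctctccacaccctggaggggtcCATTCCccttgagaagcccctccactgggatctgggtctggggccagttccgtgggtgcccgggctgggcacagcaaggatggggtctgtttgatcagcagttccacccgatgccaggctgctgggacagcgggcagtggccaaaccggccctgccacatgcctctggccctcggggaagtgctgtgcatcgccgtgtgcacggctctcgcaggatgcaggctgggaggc
WNT7A, chr3:13853651-13853950, intron: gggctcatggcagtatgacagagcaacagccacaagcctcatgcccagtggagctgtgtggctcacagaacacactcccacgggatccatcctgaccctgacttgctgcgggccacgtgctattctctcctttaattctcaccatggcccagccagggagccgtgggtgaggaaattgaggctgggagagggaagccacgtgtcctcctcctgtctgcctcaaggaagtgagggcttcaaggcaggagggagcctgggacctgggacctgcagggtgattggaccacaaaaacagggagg
WNT9A, chr1:227935401-227935700, intron: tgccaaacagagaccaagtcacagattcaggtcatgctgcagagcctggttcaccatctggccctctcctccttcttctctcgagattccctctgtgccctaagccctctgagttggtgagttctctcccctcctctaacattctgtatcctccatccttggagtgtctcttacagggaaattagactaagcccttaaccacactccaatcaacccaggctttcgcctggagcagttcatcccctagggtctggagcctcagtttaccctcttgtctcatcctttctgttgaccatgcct
DKK3, chr11:11977001-11977300, intron: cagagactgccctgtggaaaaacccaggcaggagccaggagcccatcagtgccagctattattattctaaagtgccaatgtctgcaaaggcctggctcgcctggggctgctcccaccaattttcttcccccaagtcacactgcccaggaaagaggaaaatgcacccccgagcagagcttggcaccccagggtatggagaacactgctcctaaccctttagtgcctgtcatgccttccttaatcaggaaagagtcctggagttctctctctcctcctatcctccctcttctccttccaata
SFRP5, chr10:97781551-97781850, upstream: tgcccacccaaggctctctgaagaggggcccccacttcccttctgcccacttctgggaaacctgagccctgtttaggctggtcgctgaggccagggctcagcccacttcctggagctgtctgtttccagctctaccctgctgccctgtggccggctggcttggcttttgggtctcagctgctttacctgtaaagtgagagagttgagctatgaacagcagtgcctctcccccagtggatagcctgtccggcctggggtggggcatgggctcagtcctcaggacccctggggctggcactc
DKK1 promoter, chr10:52314031-52314280: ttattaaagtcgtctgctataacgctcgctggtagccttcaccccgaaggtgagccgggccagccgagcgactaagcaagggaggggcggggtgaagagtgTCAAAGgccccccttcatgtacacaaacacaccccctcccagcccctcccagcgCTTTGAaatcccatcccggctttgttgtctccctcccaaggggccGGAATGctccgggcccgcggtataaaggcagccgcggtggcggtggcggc
FZD1 promoter, chr7:91264183-91264432: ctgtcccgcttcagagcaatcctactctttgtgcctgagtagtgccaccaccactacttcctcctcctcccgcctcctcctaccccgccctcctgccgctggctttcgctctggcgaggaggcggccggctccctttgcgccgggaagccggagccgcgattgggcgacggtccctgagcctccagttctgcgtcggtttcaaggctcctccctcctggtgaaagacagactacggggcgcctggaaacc

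Most regions of the 2 tables that compare shANCO1 with shCTRL had a positive log2 fold change, with a median of 0.76 in 10A and 0.52 in DCIS over all regions. Normalization was not stated, so the zero of these values is uncertain, and the position of a member against these medians is given where it matters. In 10A, 43.6% of 50284 regions were higher and 0.225% lower in shANCO1, and in DCIS 23.6% of 44790 regions were higher and 4.86% lower. The epithelial identity of the cells was seen in the tables against input, where CDH1, EPCAM, KRT8 and KRT18 were marked in all 4 groups and the leukocyte genes PTPRC and CD3E in none. Of the basal genes KRT5, KRT14, KRT17, TP63 and ITGB4, 3 of 5 were marked in both 10A groups and 4 of 5 in both DCIS groups, and KRT14 was marked in none. Of the hormone receptor luminal genes ESR1, PGR, FOXA1 and GATA3, 2 of 4 were marked in the shCTRL and 3 of 4 in the shANCO1 group of each line, FOXA1 being the gene marked in shANCO1 alone, and ESR1 was marked in all 4 groups although the study describes both lines as ER-negative. PECAM1, an endothelial gene, was marked in all 4 groups and CDH5 in none, and of 3 fibroblast genes PDGFRB alone was marked, in 10A shANCO1.

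Ligands carried the largest increases in DCIS. Of 23 regions at 10 ligand genes 12 were higher and none lower, and the median log2 fold change was 1.61. At least 1 higher region was found at 6 of the 10 genes, against 32.2% of all genes in DCIS. These 6 were WNT2B, WNT5B, WNT7A, WNT7B, WNT9A and WNT10A. Receptors, in contrast, had 1 higher region of 20 and a median of 0.037, and antagonists had 4 higher and 3 lower regions of 17 and a median of -0.012. The share of higher regions was thus 52.2% for ligands, 5.00% for receptors and 23.5% for antagonists, against the 23.6% of all regions. In 10A the roles lay close together and close to the background of 43.6%, with 16 of 36 ligand, 6 of 13 receptor and 6 of 15 antagonist regions higher and none lower. No difference between roles was tested, because regions of a gene are not replicates of a condition. In DCIS the higher WNT7A regions, the WNT7B region of lowest FDR and the WNT9A promoter region overlapped stretches enriched over input in shANCO1. The overlap was 200 to 600 bp per region. The other higher ligand regions, at WNT2B, WNT5B, WNT7B, WNT9A and WNT10A, overlapped no such stretch in either DCIS group. Since almost only strongly enriched stretches are listed, a weaker mark there is possible.

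**Figure D1:**
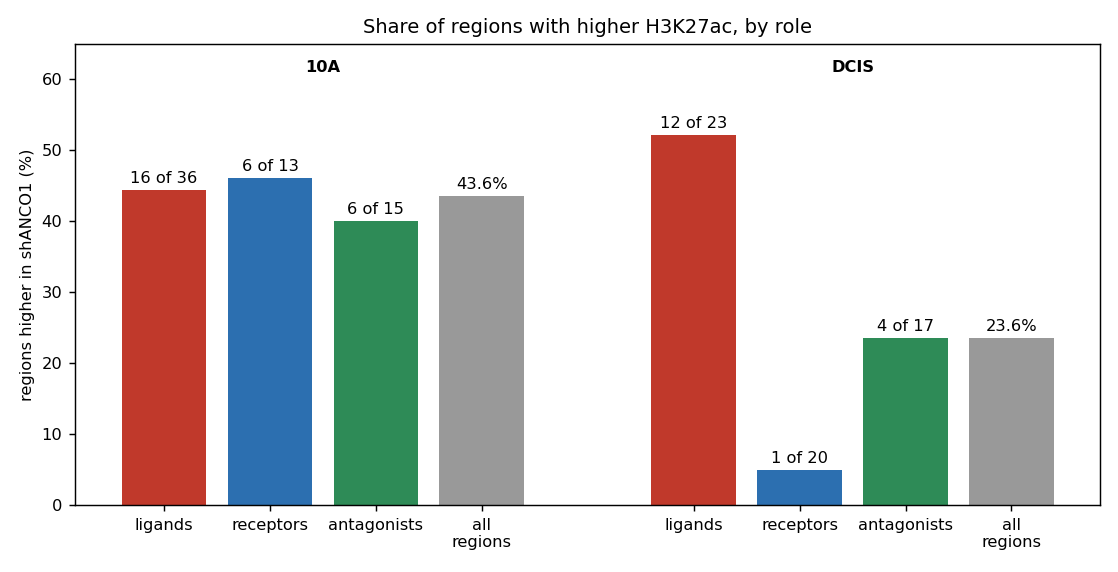
Share of regions (%, vertical axis) called higher in shANCO1 for ligands, receptors and antagonists and for all regions of the table, in 10A (left) and DCIS (right), with the counts above the bars. In 10A the bars lie between 40.0% and 46.2%, whereas in DCIS they run from 5.00% for receptors to 52.2% for ligands.

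The regions of each role were also divided by place. Of the DCIS ligand regions 8 were annotated to a promoter of some gene and 15 were not, and 2 and 10 of these were higher. Of the 20 receptor regions 18 were likewise annotated to a promoter of some gene, and 1 of these was higher. That region lies 8.6 kb into FZD3 and was annotated to an exon of FZD3, not to its promoter. Of the antagonist regions 4 of 11 at promoters (36.4%) and 0 of 6 elsewhere were higher. Over all DCIS regions, 16.3% of those at promoters and 31.3% of the others were higher. The share of higher receptor regions at promoters was 5.56%, beside the 16.3%, and that of ligand regions outside promoters 66.7% (10 of 15), beside the 31.3%. These differences were not tested. In 10A promoters had the higher background, 50.8% against 37.2% for other regions, and 6 of 16 promoter and 10 of 20 other ligand regions were higher.

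**Figure D2:**
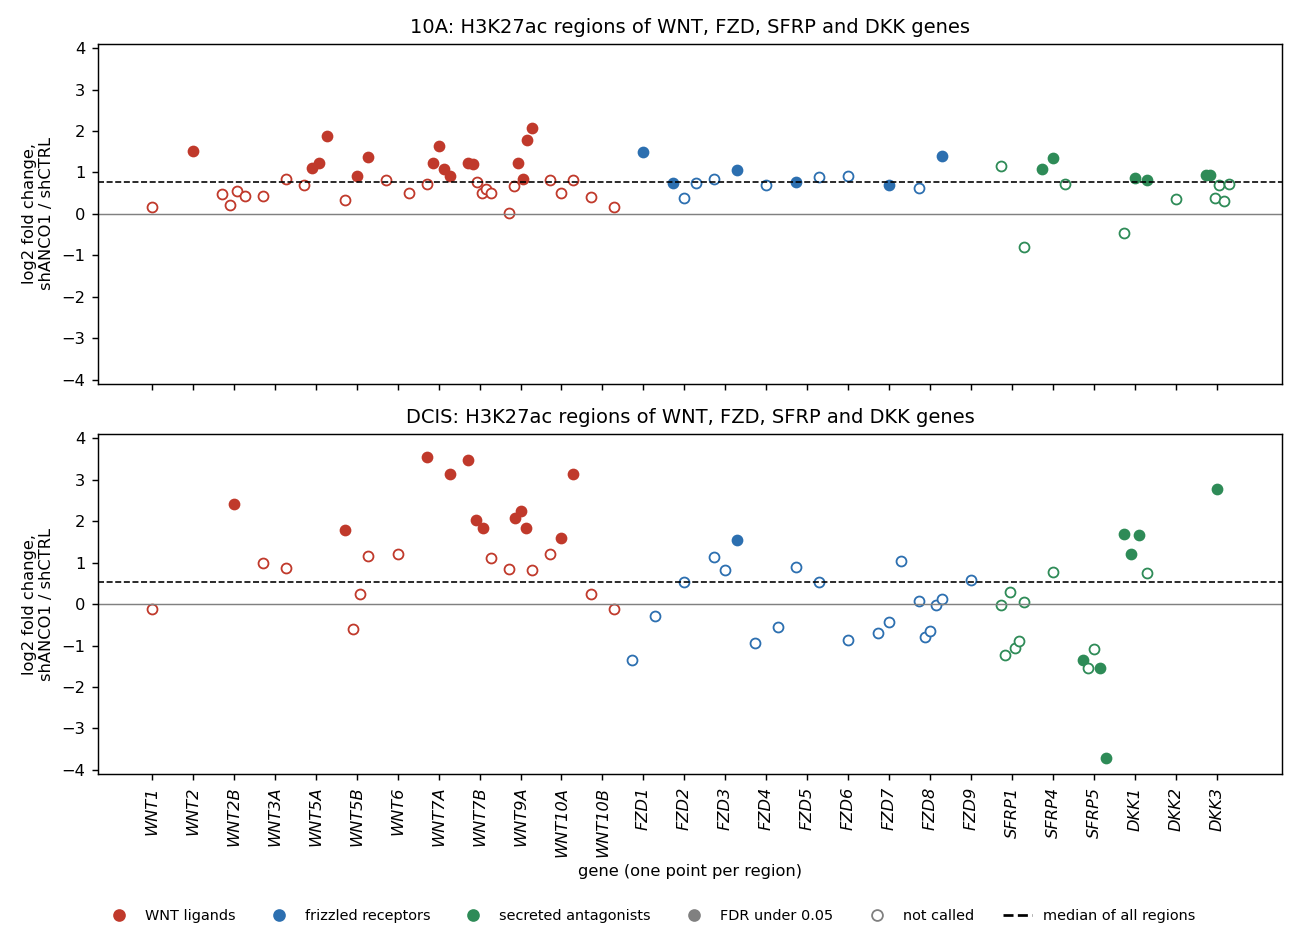
Log2 fold change of shANCO1 over shCTRL (vertical axis) for every region of each gene (horizontal axis) in 10A (top) and DCIS (bottom), coloured by role, filled where FDR was under 0.05, with the median of all regions dashed. In 10A the points lie between -0.79 and 2.08, and in DCIS ligand points reach 3.54 while the SFRP5 points lie at -1.07 or below.

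WNT7B and WNT7A, closely related ligands that can signal through β-catenin, gave the lowest FDR values of all members. In DCIS the WNT7B region at chr22:45918901-45920400, which spans the 3′ end of the gene, had a log2 fold change of 3.47, or 2.95 above the table median (csaw FDR 4.96e-15, 12 of 13 windows up). The WNT7A region at chr3:13852901-13854700, over a coding exon and intron about 25 kb into the gene, had 3.13 (csaw FDR 8.66e-13, 14 of 14 windows up), and its neighbour at chr3:13850501-13851200 had 3.54 (csaw FDR 1.33e-07). These were all the WNT7A regions tested in DCIS, so every one was higher. Of the 4 WNT7B regions in DCIS 3 were higher, and those besides the leading one lay in introns with 2.03 (csaw FDR 0.00162) and 1.85 (csaw FDR 0.00253).
In 10A the same sites had smaller values. The 10A regions overlapping the leading ones had log2 fold changes of 1.22 at WNT7B (csaw FDR 0.00405) and of 0.91 (csaw FDR 0.0103) and 1.09 (csaw FDR 0.0225) at WNT7A. They lay 0.45, 0.15 and 0.33 above the 10A median, so in 10A their change was little more than that of a typical region. The lowest FDR at WNT7B in 10A was at chr22:45925301-45927000, an intronic site with 1.20 (csaw FDR 8.10e-05, 15 of 16 windows up) that overlaps the DCIS region with 2.03. WNT7A had 2 further higher regions in 10A, in an intron 38 to 40 kb into the gene, with 1.63 (csaw FDR 0.00224) and 1.23 (csaw FDR 0.00757). Those sites had no region in the DCIS table and overlapped no stretch enriched over input in either 10A group. None of the WNT7A or WNT7B regions lay at the canonical start of the gene in either line, and the nearest, a 10A region 1.6 kb upstream of WNT7B, was not called at 0.51.

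**Figure D3:**
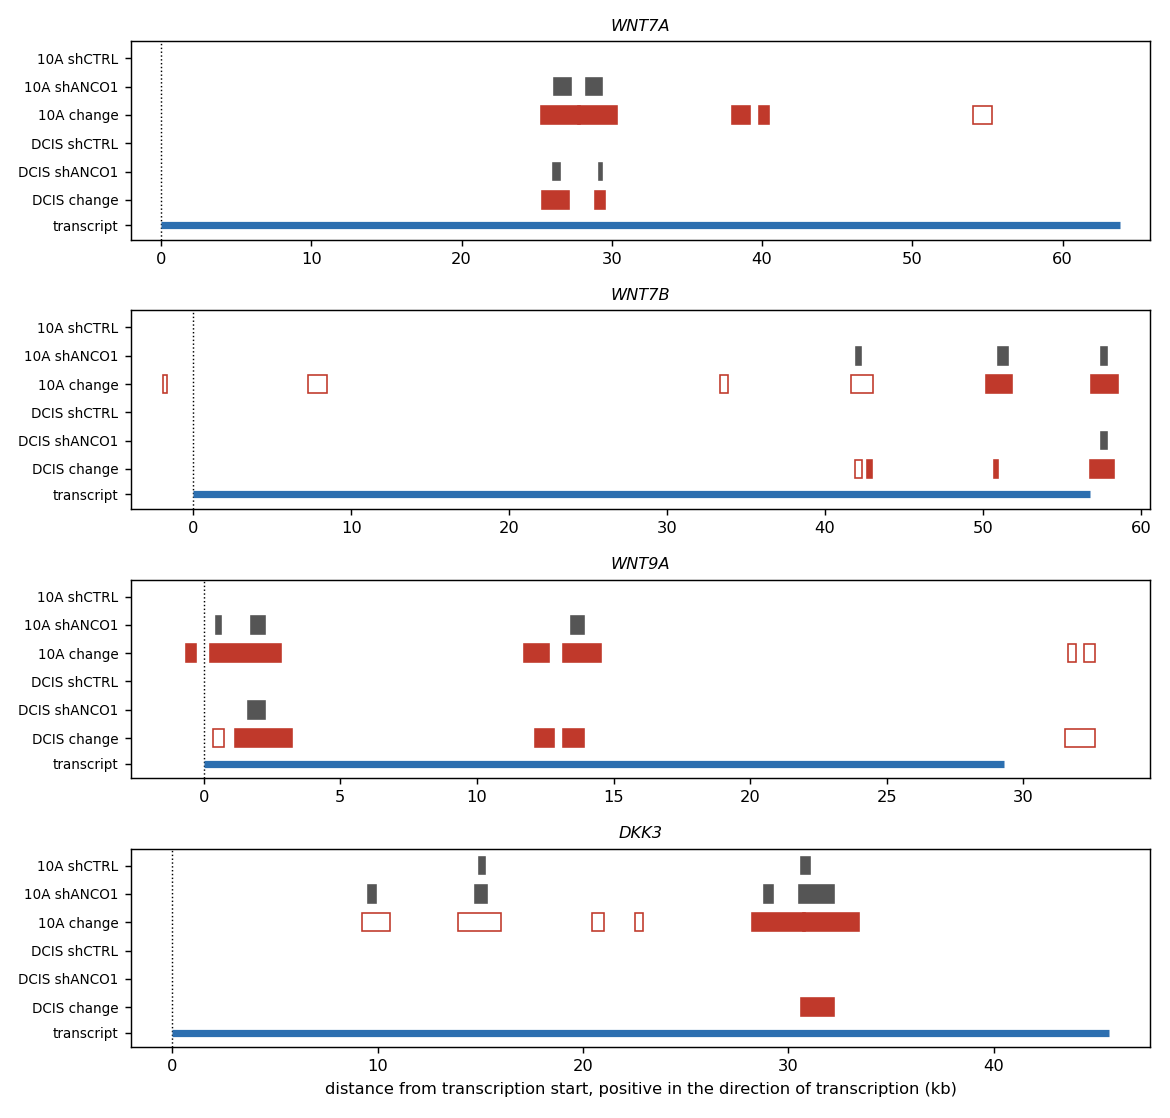
Regions at WNT7A, WNT7B, WNT9A and DKK3 by distance from the transcription start (kb), with a row for each table; grey bars are regions enriched over input in shCTRL or shANCO1, red bars are regions compared between shANCO1 and shCTRL, filled where higher, and the blue bar is the canonical GENCODE transcript. At the 3 ligand genes the shCTRL rows are empty in both lines, while the shANCO1 rows hold regions inside red bars, filled in each case but 1 WNT7B region of 10A.

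WNT9A had 4 of 6 regions higher in 10A and 3 of 5 in DCIS, and its promoter region was among the higher ones in both lines. In 10A the region at chr1:227945101-227947700, which begins 232 bp into the gene, had 1.78 (csaw FDR 7.38e-06, 23 of 25 windows up), and a small region just upstream at chr1:227948201-227948600 had 2.08 (csaw FDR 1.43e-05). These were the 2 member regions with the lowest FDR in 10A, and both exceeded the median by over 1 log2 unit. The small upstream region overlapped no stretch enriched over input in either 10A group. In DCIS the overlapping promoter region had 1.84 (csaw FDR 0.00258, 18 of 19 windows up), a value close to that of 10A. The lowest FDR in DCIS was at chr1:227935101-227935800, an intronic site 12 kb into the gene, with 2.25 (csaw FDR 2.89e-06), where 10A had 0.84 (csaw FDR 0.0419).

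WNT5A, a ligand of the non-canonical branch, was changed in 10A and had no region in the DCIS table. Of its 4 regions in 10A 3 were higher. The region over its start, chr3:55484801-55489000, had 1.24 (csaw FDR 3.24e-04, 28 of 40 windows up), a site 3.7 kb upstream at chr3:55491001-55491300 had 1.89 (csaw FDR 7.29e-05), and another at an inner promoter had 1.11 (csaw FDR 0.0245). The sites with 1.89 and 1.11 overlapped no stretch enriched over input in either 10A group. Absence from the DCIS table says only that no window there was kept by the authors, whose filter is not given in the sources used here.

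WNT2, a canonical ligand, likewise had a region in 10A alone, at chr7:117269601-117270000 beyond its 3′ end, with 1.53 (csaw FDR 1.06e-04, 3 of 3 windows up). WNT5B, a close relative of WNT5A, was higher in both lines but at different sites. In 10A 2 of 3 regions were higher, the stronger at 1.38 (csaw FDR 4.65e-04) and the weaker, which also lies in FBXL14, at 0.92 (csaw FDR 0.0165). The stronger overlapped no stretch enriched over input in either 10A group. In DCIS the region overlapping the stronger one had 1.17 and was not called (csaw FDR 0.103), while a region much farther from the gene at chr12:1541301-1541600 had 1.79 (csaw FDR 0.00395). The authors placed these sites in introns of WNT5B, but they lie 22.5 to 87.6 kb upstream of the start of the canonical GENCODE transcript.

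WNT10A and WNT2B were higher in DCIS alone. The WNT10A region at chr2:218896501-218896800, downstream of the canonical transcript, had 3.13 in DCIS (csaw FDR 1.61e-06), and 1 over its last exon had 1.61 (csaw FDR 0.0082). Both are narrow, with 2 windows each, and neither overlapped a stretch enriched over input in either DCIS group. The single broad 10A region that covers them had 0.83 and was not called (csaw FDR 0.111). For WNT2B the region at chr1:112464901-112466200 had 2.41 (csaw FDR 1.36e-04, 11 of 11 windows up) against 0.48 in 10A (csaw FDR 0.426). It was annotated as a WNT2B promoter although it lies 42.8 kb upstream of the canonical start. No stretch enriched over input overlapped it in either DCIS group.

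The remaining ligands were not called in either line. WNT3A had 2 intronic regions per line, with 0.42 and 0.83 in 10A and 0.98 and 0.87 in DCIS. WNT10B, a ligand known for its activity in mammary tissue, had a start region with 0.16 in 10A and -0.11 in DCIS and a further region that lies on ARF3. WNT1 and WNT6 were named only through regions at WNT10B and WNT10A, their neighbours, so no region was their own.

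Frizzled receptors bind WNT ligands through an extracellular cysteine-rich domain, and their regions lay mainly at promoters. In 10A 6 of 8 receptor genes had a higher region, FZD1, FZD2, FZD3, FZD5, FZD7 and FZD8, against 74.3% of all genes in the table. At the promoter of FZD1 the log2 fold change was 1.49 (csaw FDR 0.00148, 6 of 11 windows up) and at that of FZD8 1.39 (csaw FDR 0.00421, 7 of 10). Neither region overlapped a stretch enriched over input in either 10A group. FZD3 had 1.06 (csaw FDR 0.0146), FZD5 0.78 (csaw FDR 0.0323) and FZD7 0.70 (csaw FDR 0.0236). Set against the table median, FZD5 lay at 0.014 and FZD7 at -0.059, so neither stood apart from a typical region. The FZD2 call was at a site 8.9 kb upstream with 0.75 (csaw FDR 0.00282), while its promoter had 0.74 and was not called (csaw FDR 0.119), nor were those of FZD4 at 0.70 (csaw FDR 0.066) and FZD6 at 0.91 (csaw FDR 0.272).

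In DCIS each of the 9 receptor genes was taken by its promoter region with the most windows, and none of these regions was called. Over all promoter regions of that line 16.3% were higher. The median of the 9 receptor values was -0.011. The values ran from -1.34 at FZD1 (csaw FDR 0.0989, 2 of 6 windows down) to 1.14 at FZD3 (csaw FDR 0.487). Between them lay FZD6 with -0.87, FZD4 with -0.54, FZD7 with -0.42, FZD8 with -0.011, FZD2 with 0.53, FZD9 with 0.58 and FZD5 with 0.90. The order of these values cannot be tested, since the tables give no error per region. The only receptor region called in DCIS was inside FZD3 at chr8:28502801-28503400, 8.6 kb from its start, with 1.55 (csaw FDR 0.00596, 4 of 5 windows up). FZD9 had no region in 10A.

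FZD1 had the widest gap between the lines at a single promoter, 1.49 in 10A and -1.34 in DCIS, the first called and the second not. FZD8 had 1.39 in 10A and -0.011 in DCIS at overlapping regions. FZD7 had 0.70 and -0.70 at overlapping regions that cover its start. The -0.42 given above for FZD7 in DCIS is from another region. That region has more windows and begins 846 bp into the gene. Whether the lines differ at these sites was not tested, because the tables were made separately and hold no replicate values.

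The antagonists moved in both directions in DCIS and only upward where called in 10A. DKK1, the inhibitor of canonical signalling, was higher in both lines at regions that cover the gene. In 10A the region at chr10:52313001-52317200, over the start and the gene body, had 0.88 (csaw FDR 2.62e-04, 35 of 41 windows up) and the adjoining downstream region 0.82 (csaw FDR 0.00209). In DCIS 3 of 4 regions were higher, with 1.70 at chr10:52313201-52316200 (csaw FDR 2.07e-04, 9 of 29 windows up), 1.20 (csaw FDR 0.0116) and 1.67 (csaw FDR 0.00829). The 10A values were only 0.11 and 0.05 above that table's median, and the leading DCIS value 1.18 above its own.

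DKK3, which carries the domains of the DKK family but is not a typical WNT inhibitor, had the lowest FDR among the DCIS antagonists. Its single DCIS region, chr11:11976401-11978000, had 2.78 (csaw FDR 6.48e-07, 15 of 15 windows up). That region overlapped no stretch enriched over input in either DCIS group. In 10A the overlapping region had 0.93 (csaw FDR 7.67e-05, 21 of 26 windows up) and its neighbour 0.94 (csaw FDR 0.00308). All 3 lie in an intron 28 to 31 kb from the canonical start and were annotated to a promoter of DKK3, and the other 4 DKK3 regions in 10A were not called.

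SFRP5 was the only member with lower regions. It had 5 regions in DCIS, all with negative values from -3.71 to -1.07, and none in 10A. The strongest, chr10:97781401-97782000, lies 9.4 kb upstream of the gene and had -3.71 (csaw FDR 1.12e-05), with 2 of its 5 windows down. The others called were chr10:97775101-97775400, annotated to its promoter, with -1.53 (csaw FDR 0.0248), and chr10:97762601-97762900, beyond its 3′ end, with -1.35 (csaw FDR 0.0297). Of the 24 member genes tested in DCIS, 1 had a lower region (over all genes 7.16%), and in 10A 0 of 25 had one (over all genes 0.445%). None of these 5 regions overlapped a region enriched over input in either DCIS group.

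SFRP4 was higher in 10A alone. Its region at chr7:37920401-37921700, next to the WNT9A regions in the order of FDR among the members, had 1.09 (csaw FDR 3.49e-05, 11 of 12 windows up) and also lies in EPDR1, so the gene it belongs to is uncertain. In DCIS the same interval had 0.77 and was not called (csaw FDR 0.288). A single-window region farther upstream in 10A had 1.36 (csaw FDR 0.00258) and overlapped no stretch enriched over input in either 10A group. SFRP1, often silenced in breast tumours, was not called in either line. In DCIS 3 of its 6 regions had values between -1.22 and -0.89 with FDR of 0.312 to 0.697, and in 10A its promoter region had -0.79 (csaw FDR 0.507) and an intronic one 1.15 (csaw FDR 0.0561). DKK2 had 1 single-window region, in 10A, with 0.36 (csaw FDR 0.396).

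Across the lines 7 genes had a higher region in both, DKK1, DKK3, FZD3, WNT5B, WNT7A, WNT7B and WNT9A, out of 22 with regions in both tables (31.8%). Over all genes the share was 28.2%, so the members' share lay near the background. The count of 7 fell to 1, and the 28 higher regions of 10A to 3, when a region also had to exceed its table's median by 1 log2 unit. The share of all genes or regions that pass this setting was not computed, so these counts have no background. Considered line by line, 15 of 25 member genes were higher in 10A (background 74.3%) and 9 of 24 in DCIS (background 32.2%). Regions that overlapped between the lines formed 44 pairs. In 13 of them both were higher (29.5%, against 16.7% of all 33865 overlapping pairs), 7 at ligands, 6 at the antagonists DKK1 and DKK3, whose regions enter several pairs each, and none at receptors. In 11 pairs 10A alone was called (over all pairs 36.1%), 6 of these at receptors, in 4 DCIS alone (over all pairs 12.1%), all at ligands, and in 16 neither. No pair had opposite calls, and over all 33865 pairs 345 had them. The share of all pairs with neither region called was not computed. The DCIS value was the larger in 16 of 22 ligand pairs and in 3 of 12 receptor pairs, and in 46.0% of all pairs. These differences from all pairs were not tested.

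**Figure D4:**
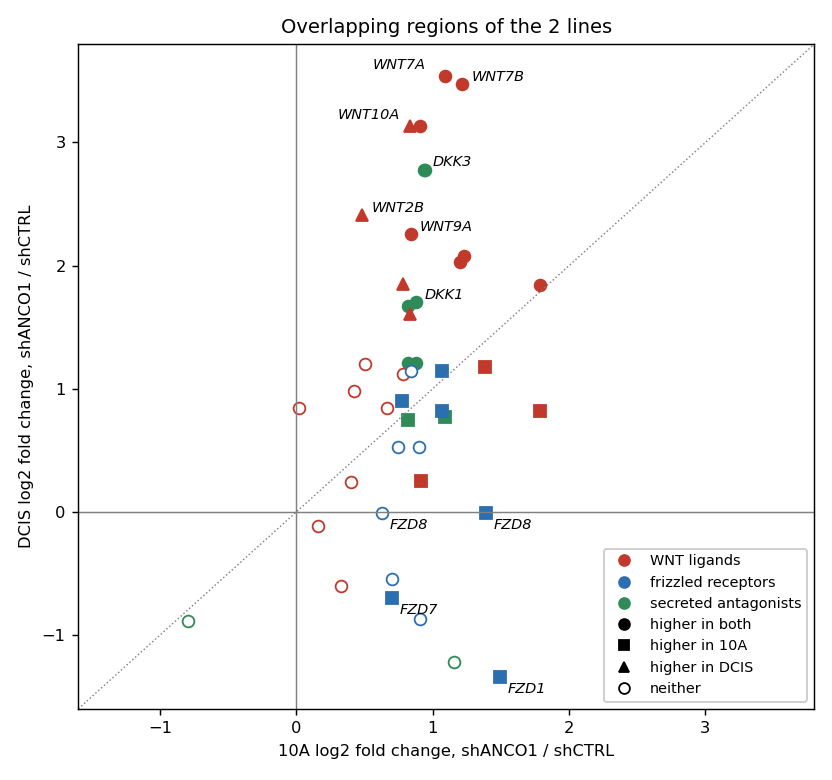
Log2 fold change in 10A (horizontal axis) and in DCIS (vertical axis) for the 44 pairs of overlapping regions, coloured by role, with the symbol giving the line in which the region was called and the dotted line marking equal values. Both WNT7A points and the top points of WNT7B and WNT10A lie above 3 in DCIS and near 1 in 10A, and the receptor points all lie below 1.2 in DCIS.

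The tables against input show where the mark itself was found. They list almost only strongly enriched regions, with the largest FDR between 1.24e-08 and 3.92e-08 in 3 tables, so a gene not listed may still carry a weaker mark. The DCIS shCTRL table held 3 of 15482 regions with an FDR over 1e-07, up to 0.228, and none of the 3 was at a member gene. In 10A shCTRL 5 of the 25 member genes in the table were marked (20.0%, against 52.4% of all genes), namely WNT10B, FZD2, FZD6, DKK1 and DKK3. In 10A shANCO1 16 were marked (64.0%, against 81.7%), among them 8 ligands instead of 1. In DCIS 8 of 24 were marked in shCTRL (33.3%, against 61.5%) and 11 in shANCO1 (45.8%, against 65.7%). The members' share lay below that of all genes in each of the 4 groups, which was not tested.

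**Figure D5:**
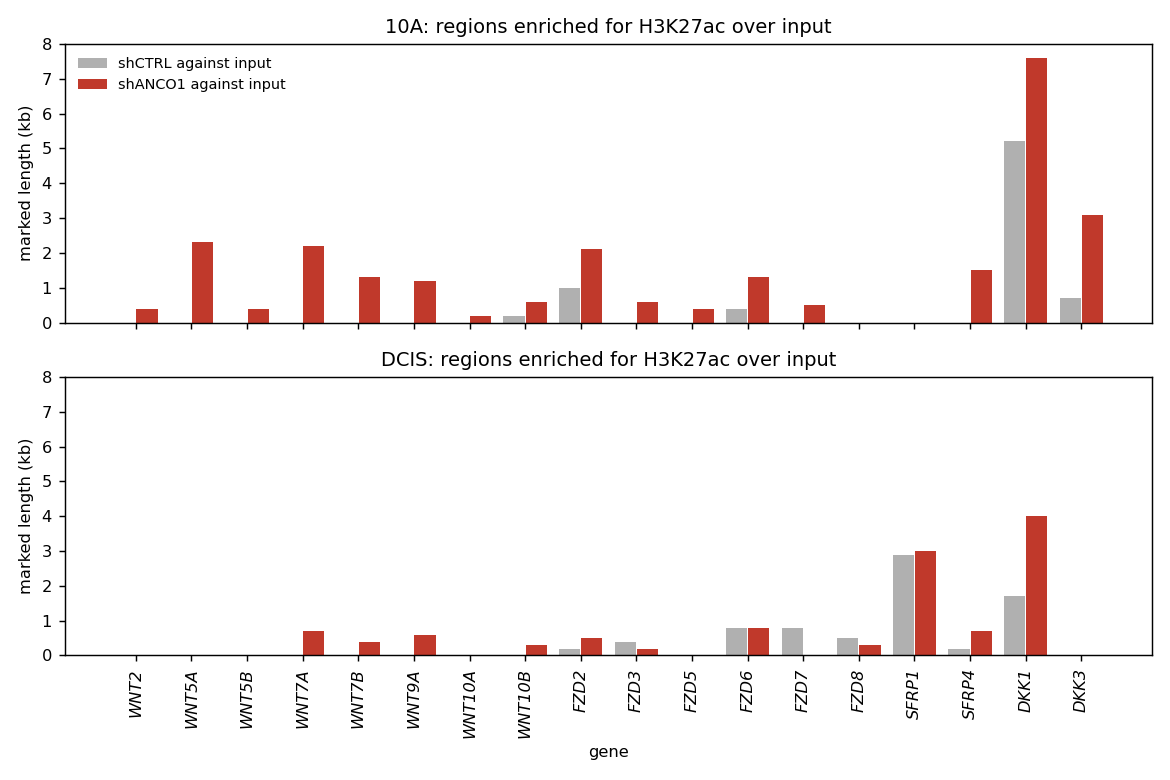
Length of the regions enriched for H3K27ac over input (kb, vertical axis) at each member gene marked in any group, for shCTRL (grey) and shANCO1 (red), in 10A (top) and DCIS (bottom). DKK1 has the longest marked stretch in 10A in both groups, and the ligand genes other than WNT10B have a bar only in shANCO1.

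The ligands WNT7A, WNT7B and WNT9A were listed in the shANCO1 table of both lines and in neither shCTRL table. The share of all genes listed in shANCO1 and not in shCTRL was not computed. Over all genes the marked share was 52.4% in shCTRL and 81.7% in shANCO1 of 10A. In DCIS it was 61.5% and 65.7%. At WNT7A the marked length was 2200 bp in 10A shANCO1 and 700 bp in DCIS shANCO1, with log2 values over input of 3.06 and 3.83 in 10A and of 6.90 and 3.72 in DCIS. At WNT7B it was 1300 and 400 bp and at WNT9A 1200 and 600 bp. WNT2, WNT5A, WNT5B and WNT10A were listed in 10A shANCO1 alone, WNT5A over 2300 bp around its start. WNT10B was listed in 10A shCTRL, 10A shANCO1 and DCIS shANCO1, each time through the region on ARF3. Regions in these tables were called separately in each group, and the total covered was 9.04 Mb in 10A shCTRL and 25.3 Mb in 10A shANCO1, so longer marked lengths in the second accompany a table that is larger throughout. In DCIS the totals were 10.96 and 11.87 Mb.

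Among the receptors FZD2 and FZD6 were marked in all 4 groups. FZD3, FZD5 and FZD7 were listed in 10A shANCO1 and not in 10A shCTRL. In DCIS FZD3 and FZD8 were listed in both groups and FZD7 in shCTRL alone, over 800 bp. FZD1, FZD4 and FZD9 were listed in no group. Of the antagonists DKK1 was marked throughout, over 5200 bp in 10A shCTRL, 7600 bp in 10A shANCO1, 1700 bp in DCIS shCTRL and 4000 bp in DCIS shANCO1, at log2 values over input of 2.84 to 6.69. DKK3 was marked in 10A alone, over 700 bp in shCTRL and 3100 bp in shANCO1. SFRP1 was marked in DCIS alone, over 2900 bp in shCTRL and 3000 bp in shANCO1, and SFRP4 in every group but 10A shCTRL.

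The sequences printed above were read against motifs over all regions. In the 300 bases at the middle of each region, TGANTCA occurred in 9 of 64 member regions in 10A (all regions 16.3%) and in 5 of 60 in DCIS (all regions 13.4%). GGAATG occurred in 11 (18.0%) and 6 (17.4%), and CTTTGA, whose end can overlap TGANTCA, in 9 (17.7%) and 6 (15.9%). Of the 17 higher member regions in DCIS 2 held TGANTCA, at FZD3 and WNT9A, while over all higher DCIS regions the share was 21.5%. The printed WNT7B stretch held 1 GGAATG on the minus strand, and those of WNT7A, WNT9A, DKK3, SFRP5 and FZD1 held none of the 3 motifs. The 250 bases before the DKK1 start held 2 CTTTGA matches, 1 on each strand, and 1 GGAATG. RefSeq promoters of 300 bases were found for 25 of the 37 genes (28 promoters). None held TGANTCA (7.71% of all 35116 promoters), the promoters of DKK1 and WNT16 held GGAATG (14.0%) and that of DKK1 alone CTTTGA (12.9%). A match is a description of the letters, and no match says nothing of whether a factor binds nearby.

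Of 47 other genes of the pathway 40 had a region. In 10A 76 of their 188 regions were higher (over all regions 43.6%) and 1 lower (0.225%), with a median of 0.72. In DCIS 29 of 172 were higher (over all regions 23.6%) and 6 lower (4.86%), with a median of 0.45. Both medians lay just under those of all regions. In 10A all 9 cytoplasmic genes of the list had a higher region, beside 74.3% of all genes. In DCIS 5 of 9 had a higher region (over all genes 32.2%) and 1 a lower region (over all genes 7.16%), with a median of 0.21 over their regions. In 10A DVL1, a scaffold that relays the frizzled signal, had 1.06 (csaw FDR 1.41e-04) and CTNNB1, the β-catenin gene, 0.88 (csaw FDR 0.00352). CTNNB1 was lower in DCIS with -1.96 (csaw FDR 0.0313, 5 of 29 windows down). Of the nuclear genes TCF7L1, a TCF/LEF factor, had 2.44 in DCIS (csaw FDR 1.99e-09, 29 of 31 windows up) and 0.83 in 10A (csaw FDR 3.24e-04).
The co-receptor LRP5 had its leading region in an intron, with 1.02 in 10A (csaw FDR 7.68e-04) and, at another site, -2.15 in DCIS (csaw FDR 0.00398, 7 of 29 windows down). RYK, a WNT co-receptor of the tyrosine kinase family, was higher over its promoter in both lines, with 1.17 in 10A (csaw FDR 0.0016) and 1.63 in DCIS (csaw FDR 2.77e-05). ZNRF3, a ligase that removes frizzled receptors from the surface, was likewise higher in both, with 1.11 (csaw FDR 3.39e-05) and 1.63 (csaw FDR 0.00453). WIF1, a secreted inhibitor that binds WNT ligands, was lower in DCIS with -2.83 in an intron (csaw FDR 7.69e-05), and of the other antagonists listed none was higher there. Of WLS, PORCN and NOTUM, which act in secretion and removal of ligands, 2 had a region in 10A and 2 in DCIS. None of these regions was called.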

How the data were processed

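H3K27ac was mapped by ChIP-seq in 24 libraries, and every comparison below uses whole groups of 3. As the study's methods state, BWA and Rsubread served for alignment to GRCh38 and samtools for removal of duplicates, and the authors ran csaw for the tests and ChIPpeakAnno for the annotation. The deposited log2 fold change is the authors' value for 1 window of a region, the deposited p-value and FDR are the authors' over a table, and the deposited numbers of windows count tests, not reads. These are the authors' own comparison columns, used because the tables hold nothing else. Normalization, window filter and merging are not given in the sources used here. Depth and replicate error are unknown, and samples sharing a group entered the authors' test together.

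Regions were parsed with pandas 2.3.3, placed on canonical transcripts of GENCODE release 44, and counted at FDR under 0.05. All member genes are accounted for. Values in full are those of the 5 member regions with the lowest FDR per line and direction and of genes changed in both lines, and a gene's promoter value is that of its promoter region with the most windows. Members, lists and tests were chosen with earlier results of these data known. Scripts were tested on simulated annotation, calls and motifs. Alternatives in thresholds, centring, annotation columns and region size were computed, those for ligand and receptor counts in DCIS after seeing the data.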

Additional observations from a re-analysis of the deposited data

How the results depend on the processing

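Of 58 alternative values over 13 results, 41 stayed within 1.5 times the reported count or at the same value, and 17 moved. Only a median could reverse its sign, since a count cannot be negative, and no median did. In 10A, 28 higher regions became 18 where a log2 fold change of 1 or more was also required, and 3 where they had to exceed the table median by 1 log2 unit. Under that centring 1 gene instead of 7 was higher in both lines. Alternatives were computed for members alone, so no share over all regions stands beside them. The median log2 fold change of member regions, 0.80 in 10A and 0.66 in DCIS, became 0.83 and 0.82 with the overlap column alone and 0.88 and 0.79 with regions of at least 5 windows. The 3 lower DCIS regions became 1 at FDR under 0.01, 5 at FDR under 0.1, and 1 each with the overlap column alone and with at least 5 windows. Marked genes fell from 5 to 3 in 10A shCTRL at FDR under 1e-10. With at least 5 windows they were 2 in 10A shCTRL, 9 in 10A shANCO1, 3 in DCIS shCTRL and 3 in DCIS shANCO1, and higher DCIS ligand regions were 7 of 12 in place of 12 of 23. Each of these settings keeps fewer or more regions by its construction. The count of higher receptor regions in DCIS was 1 under each of its 5 alternatives. No paired analysis was possible because the deposited columns hold whole groups without replicate numbers, and for the same reason no replicate was left out. The tables hold no reads, and no depth limits are given.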
